A study of Drosophila melanogaster with 13 samples.

Results

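The sites bound in common by D. simulans Zeus (Dsim_Zeus) and D. yakuba Caf40 (Dyak_Caf40) were examined in ChIP-Seq peak lists, in which each peak is a stretch of DNA recovered above background with a tagged protein. A site was a run of overlapping peaks in which a Dsim_Zeus and a Dyak_Caf40 peak shared at least 1 bp. Among the 3053 nuclear peaks of the 2 lists, 43 such sites were found, and they held 56 of 1090 Dsim_Zeus and 47 of 1963 Dyak_Caf40 peaks. The 3 lists of the series hold 3429 nuclear peaks in all. All groups were adult D. melanogaster of the w1118 strain, carrying a piggyBac transgene that drove the coding sequence, with an N-terminal 3xFLAG tag, from the broadly active Actin5C promoter. They differed in the coding sequence carried, which was that of Dsim_Zeus, Dyak_Caf40 or D. melanogaster Zeus (Dmel_Zeus), and their age is not given in the sources used here. Chromatin came from whole bodies, with 150 flies per library, and a polyclonal anti-FLAG antibody was used throughout. Of the 13 libraries, 4 immunoprecipitations and 1 input belonged to Dsim_Zeus, 4 and 1 to Dyak_Caf40, and 2 and 1 to Dmel_Zeus.

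Caf40 is a conserved subunit of the CCR4-NOT complex, the main machinery that shortens mRNA tails and so starts mRNA decay. Zeus is a young retrogene, copied from the X-linked Caf40 gene into an autosome after the lineage of D. yakuba had split off, and it is expressed in the testis. D. yakuba has no Zeus, so its Caf40 protein stands for the state before the duplication. ChIP recovers DNA that a protein touches directly or through partners, and a peak does not say which.

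The design limits what the lists can show. The host flies carried their own Caf40 and Zeus genes, the transgene was expressed outside the tissue of Zeus, and whole bodies mix all cell types. Each protein came from a single transgenic line whose libraries were technical replicates, and it has 1 list with no value per library. Every comparison below is therefore between lists, with no spread between replicates to set it against, and how many reads lie behind a peak is unknown. The numbers in the titles of the Dsim_Zeus libraries (1004 to 1008) form a series apart from those of Dyak_Caf40 (635 to 674) and Dmel_Zeus (633 to 671), which share a range. The library series and the protein therefore cannot be told apart in any comparison of Dsim_Zeus with either, and the overlap of Dmel_Zeus with Dyak_Caf40 is between lists of 1 series. The deposited score has no stated scale, so peaks were only ranked by it within their own list, with rank 1 for the highest score.

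Few sites were shared, but more than peak spacing alone gave. The 56 shared Dsim_Zeus peaks were 5.14% of the list (95% Wilson interval 3.98 to 6.61, counting error only). The 47 shared Dyak_Caf40 peaks were 2.39% of theirs (1.81 to 3.17). When the Dsim_Zeus peaks of each sequence were moved together around that sequence by a random distance, which keeps their widths and spacing, 13.9 peaks were shared on average over 10000 shifts (SD 4.41, central 95% 6 to 23). The observed count was 4.04 times this mean, and 0 of the shifts reached it (circular-shift permutation test, one-sided, adjusted p = 0.0002 over 6 tests). Counted by Dsim_Zeus peaks, the excess was similar in size in the 2 compartments of the assembly. On the 6 chromosome arms 34 peaks were shared against 8.52 after shifts (SD 3.37, 3.99-fold, circular-shift permutation, adjusted p = 0.0002). On the 6 heterochromatic sequences, which carry the suffix Het in the build and hold repeat-rich DNA near centromeres and on Y, 22 were shared against 5.36 (SD 2.79, 4.11-fold, circular-shift permutation, adjusted p = 0.0002). The difference between the compartments was not tested, and it varied with the setting. With the Dyak_Caf40 peaks shifted and counted instead, the excess was 2.92-fold on arms and 4.20-fold on heterochromatic sequences. With the higher-scoring 50% of each list it was 8.82-fold and 5.35-fold. When every line of the lists was counted, repeats included, the excess over all sequences was 2.25-fold and no longer passed the threshold (circular-shift permutation, adjusted p = 0.253). That count has no recorded value for either compartment.

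The shared sites made up different shares of the 2 lists, which differ in size and in place. Dsim_Zeus had 488 of its peaks on the heterochromatic sequences (44.8%), and Dyak_Caf40 had 96 (4.89%). On the arms, shared peaks were 5.65% of the Dsim_Zeus peaks (4.07 to 7.79) and 1.34% of the Dyak_Caf40 peaks (0.909 to 1.97). On the heterochromatic sequences the order turned, with 4.51% of the Dsim_Zeus (3.00 to 6.73) and 22.9% of the Dyak_Caf40 peaks (15.6 to 32.3). For Dsim_Zeus the intervals of the 2 compartments overlapped, and for Dyak_Caf40 they did not. Of the 43 sites, 25 lay on arms and 18 on heterochromatic sequences.

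**Figure D1:**
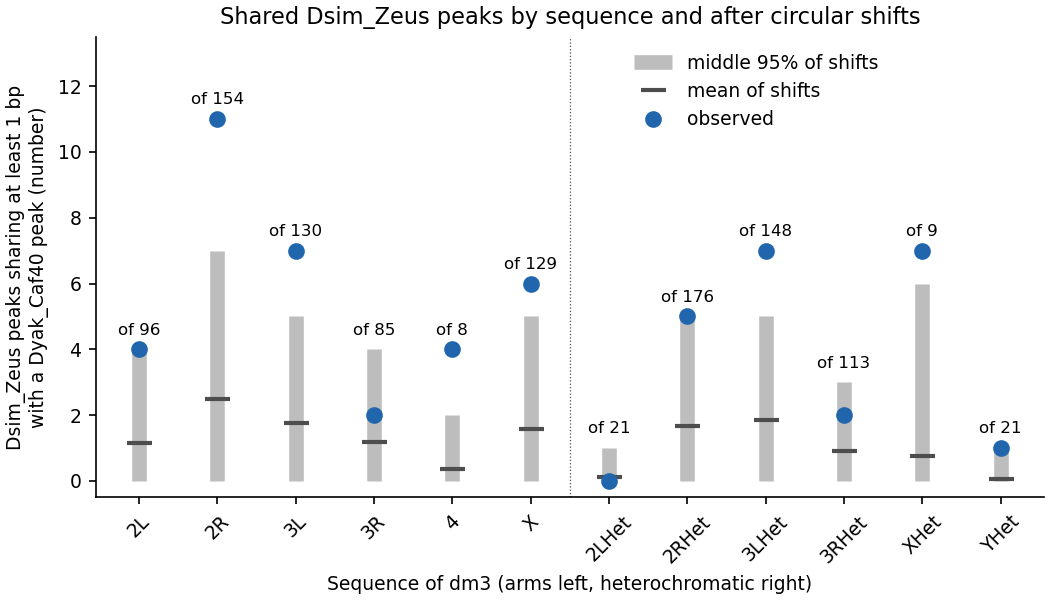
Number of Dsim_Zeus peaks that share at least 1 bp with a Dyak_Caf40 peak on each sequence (points), with the mean (tick) and central 95% (grey bar) of 10000 circular shifts. Counts lie above the bar on 2R, 3L, chromosome 4, X, 3LHet and XHet.

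By sequence, the observed count lay above the central 95% of the shifts on 6 of the 12 sequences. The long arms 2R, 3L and X were among them. 2R held 11 shared Dsim_Zeus peaks of 154 (2.50 after shifts, central 95% 0 to 7). 3L held 7 of 130 (1.75, 0 to 5), and X held 6 of 129 (1.58, 0 to 5). The arms 2L, with 4 of 96 (1.14, 0 to 4), and 3R, with 2 of 85 (1.17, 0 to 4), stayed within the range of the shifts. Single sequences were not tested.

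Chromosome 4, the small dot chromosome, stood out by its share. It held only 8 Dsim_Zeus peaks, and 4 of them were shared (50%, 21.5 to 78.5, against 0.371 after shifts), in 2 sites. Its 62 Dyak_Caf40 peaks included 2 that were shared.

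Among the heterochromatic sequences, XHet held the densest set of common sites. There 7 of 9 Dsim_Zeus peaks (77.8%, 45.3 to 93.7) and 8 of 8 Dyak_Caf40 peaks were shared, in 6 sites on a sequence of 204.1 kb. All 6 sites lay close together at its end, between 183899 and 204067. The interval treats these neighbouring peaks as independent. The shifts gave 0.743 (0 to 6) on this short sequence. Without XHet, the excess over the heterochromatic sequences was 3.25-fold (15 against 4.62, circular-shift permutation, adjusted p = 0.0016). 3LHet held 7 shared Dsim_Zeus peaks of 148 (1.85, 0 to 5), 2RHet 5 of 176 (1.68, 0 to 5) and 3RHet 2 of 113 (0.91, 0 to 3). YHet had 1 shared peak of 21, which met the single Dyak_Caf40 peak on that sequence. On 2LHet, 0 of 21 Dsim_Zeus peaks were shared, and only 2 Dyak_Caf40 peaks lay there.

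Within the large arms, the centromere-proximal 1 Mb held 7 of the sites. It was counted from the last peak on 2L, 3L and X and from the first base of 2R and 3R. The distance to the centromere itself was not measured. Of the Dsim_Zeus peaks there, 11 of 159 were shared (6.92%, 3.91 to 12), against 19 of 435 on the rest of these arms (4.37%, 2.81 to 6.72), and these intervals overlapped. Of the Dyak_Caf40 peaks, 7 of 100 were shared in the proximal regions (7%, 3.43 to 13.7) and 16 of 1705 elsewhere (0.938%, 0.578 to 1.52), and these did not. Dsim_Zeus peaks were denser in the proximal regions, which raises the share that position alone gives. No shift expectation was computed for these shares. Without the proximal regions the arm excess was 3.67-fold (circular-shift permutation, adjusted p = 0.0003).

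Shared peaks had higher scores than the other peaks of their lists, and the shared Dyak_Caf40 peaks were also wider. These comparisons are descriptions, since peaks are not replicates. A wider peak also meets the rule of 1 shared bp more easily, and no shift expectation was computed for the medians. The median width of shared Dsim_Zeus peaks was 485.5 bp, and that of the other 1034 was 355 bp, a ratio of 1.37 with an interval for the shared median that includes 1 (0.935 to 1.57). For Dyak_Caf40 the medians were 530 bp and 336 bp, a ratio of 1.58 (1.33 to 2.58). When sharing meant midpoints within 250 bp, the Dyak_Caf40 ratio was 1.39. The median score percentile, 100 being the highest score of a list, was 85.1 for shared and 48.4 for other Dsim_Zeus peaks, and 78.6 and 49.2 for Dyak_Caf40. The Dsim_Zeus difference of 36.6 percentile points (24.4 to 42.2) was 17.0 when every line of the lists was counted. The upper 50% of scores held 45 of the 56 shared Dsim_Zeus peaks (80.4%) and 499 of the 1034 others (48.3%). It held 39 of the 47 shared Dyak_Caf40 peaks (83.0%) and 941 of the 1916 others (49.1%). The same held in each compartment. Shared Dsim_Zeus peaks had median percentiles of 85.1 on arms and 87.2 on heterochromatic sequences, where the other peaks had 44.4 and 53.0. For Dyak_Caf40 the shared peaks had 77.2 and 86.5, and the others 48.7 and 67.7.

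Sharing was more frequent at high scores in both lists, but the best-ranked windows differed. With each list cut into 5 classes of score, 32 of 218 Dsim_Zeus peaks were shared in the highest class and 4 of 218 in the lowest. The shifts gave 4.01 and 2.27. For Dyak_Caf40 the counts were 22 of 393 and 1 of 398, against 4.11 and 1.96 after shifts. Among the 50 best-ranked Dsim_Zeus peaks 12 were shared (24.0%, 14.3 to 37.4, against 1.24 after shifts), and among the next 50 there were 8 (16%, 8.34 to 28.5). The share fell to 11 of 500 at ranks 501 to 1000 (2.20%, 1.23 to 3.90), against 5.41 after shifts. In the Dyak_Caf40 list, 0 of the 100 best-ranked peaks were shared, which allows a share of up to 3% (the share that 3 counts would give). The shifts gave only 0.323 (central 95% 0 to 2) at ranks 1 to 50 and 0.338 (0 to 2) at ranks 51 to 100, so a count of 0 was within their range. The next 100 held 17 shared peaks (17.0%, 10.9 to 25.5, against 1.74 after shifts). These 17 lay in 15 sites, 10 of the peaks were on heterochromatic sequences and 7 were over 2 kb wide. All 17 also shared a base with a Dmel_Zeus peak, as did 98 of the 100 peaks in this range of ranks. Beyond rank 1000, 8 of 964 Dyak_Caf40 peaks were shared (0.830%, 0.421 to 1.63, against 5.13 after shifts). The 100 best-ranked Dyak_Caf40 peaks lay a median of 227.8 kb from the nearest Dsim_Zeus peak, and 3 of them lay within 10 kb of one. All but 4 of these 100 lay on arms. There, the unshared Dyak_Caf40 peaks of all ranks had a median gap of 183.3 kb, and 77 of 1842 had a gap under 10 kb. None of the 100 best-ranked peaks was over 2 kb wide, and in the whole list 15 of 1963 were.

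**Figure D2:**
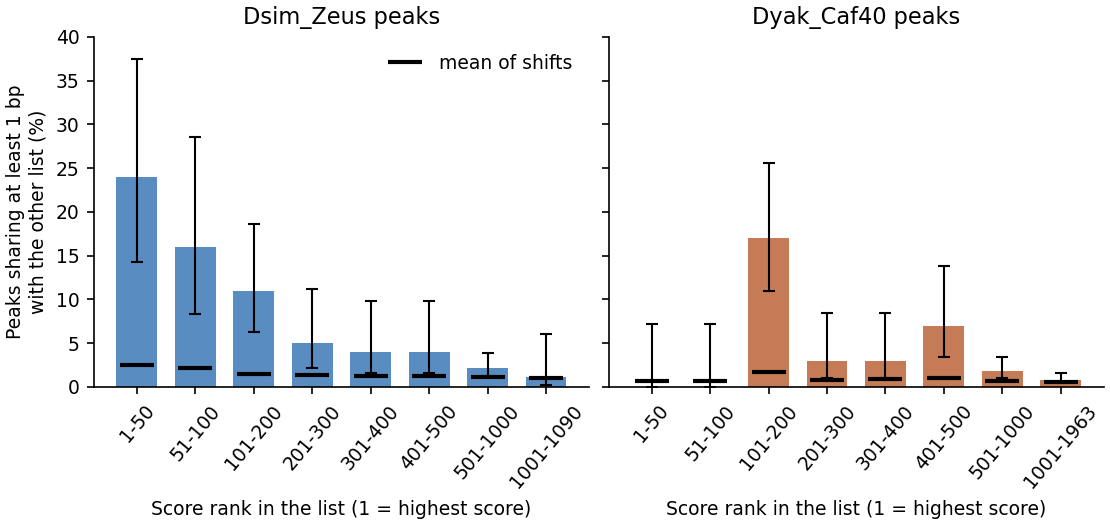
Percent of peaks shared with the other list by score rank within the list (columns), with 95% Wilson intervals (whiskers) and the mean share after circular shifts (ticks). The Dsim_Zeus share was highest at ranks 1 to 50 (24.0%), and the Dyak_Caf40 share was 0 up to rank 100 and highest at ranks 101 to 200 (17.0%).

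Width separated the Dyak_Caf40 peaks more than the Dsim_Zeus peaks. Of the 15 Dyak_Caf40 peaks over 2 kb, 8 were shared (53.3%, 30.1 to 75.2), against 0.755 after shifts, which allow for width. Of the 760 that were at most 300 bp wide, 4 were shared (0.526%, 0.205 to 1.35), against 3.82 after shifts. Of the Dsim_Zeus peaks over 2 kb, 2 of 20 were shared (10%, 2.79 to 30.1), and of those of at most 300 bp 15 of 395 (3.80%, 2.31 to 6.17). The shifts gave 0.846 (central range 0 to 3) for these wide Dsim_Zeus peaks and 3.77 (0 to 8) for the narrow ones. The counts were 2.36 and 3.98 times these means. The wide Dsim_Zeus peaks were thus within the range of the shifts, and the narrow ones were above it. The 8 wide Dyak_Caf40 peaks fell in 7 sites that held 18 of the 56 shared Dsim_Zeus peaks. With all peaks over 2 kb left out of both lists, 37 Dsim_Zeus peaks were shared, 3.05 times the mean after shifts (circular-shift permutation, adjusted p = 0.0006). On the arms alone the excess was then 2.68-fold (circular-shift permutation, adjusted p = 0.0022).

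The sites took 2 main forms. In 34 of the 43, 1 peak of each list overlapped. In these 34 sites the midpoints lay a median of 112 bp apart (0 to 1621), and 17 pairs had midpoints within 100 bp. The Dyak_Caf40 peak was the wider in 22 of them and the Dsim_Zeus peak in 12. Both peaks were in the upper 50% of scores in 20 sites and both in the lower 50% in 2. Across these 34 sites the score percentiles of the 2 lists had a Spearman's rho of 0.43 and a Pearson's r of 0.27, given as a description, since sites are not replicates and all points come from the same 2 lists.

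In 7 sites a single Dyak_Caf40 peak met several Dsim_Zeus peaks, 20 in all and up to 4 in a site. It covered them wholly in 6 of these sites (18 peaks) and overlapped 2 of them in part in the other. In 2 heterochromatic sites a single Dsim_Zeus peak met 3 Dyak_Caf40 peaks. Over the 60 overlapping pairs, the Dsim_Zeus peak lay wholly inside the Dyak_Caf40 peak in 31, the reverse held in 10, and 19 overlapped in part. At least 50% of the shorter peak was shared in 52 pairs, and 5 pairs shared under 100 bp. The shared bases summed to 25.3 kb, which was 4.52% of the bases under Dsim_Zeus and 2.83% of those under Dyak_Caf40 peaks. When peaks under 1 kb apart were merged, the arm excess was 2.50-fold (circular-shift permutation, adjusted p = 0.0016).

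Some of the arm sites with the best ranks in both lists lay in the proximal 1 Mb of an arm sequence. The others lay farther out or on chromosome 4. Coordinates are on dm3 and counted from 1. A gene annotation of this build was not used here, so genes at the sites are not named. The lowest sum of ranks belonged to a site on 3L at 23841920 to 23842730, in the proximal 1 Mb. There a Dsim_Zeus peak of rank 26 lay wholly inside a Dyak_Caf40 peak of rank 136 and shared 611 bp with it. Further out on 3L were 2 neighbouring sites. At 23108438 to 23110955, a Dyak_Caf40 peak of rank 150 covered 4 Dsim_Zeus peaks, the best of rank 62. At 23105816 to 23108347, a Dyak_Caf40 peak of rank 105, the best-ranked of all that were shared, covered 1 Dsim_Zeus peak of rank 113 and 584 bp. These adjoining sites show the same arrangement, with broad Caf40 intervals and narrow Zeus intervals inside them.

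Chromosome 4 at 612241 to 616218 held a Dyak_Caf40 peak of rank 153 that covered 3 Dsim_Zeus peaks with a best rank of 44. The arm site with the most shared bases, 1991 bp, lay on 2R at 750966 to 755145, in the proximal 1 Mb. There 4 Dsim_Zeus peaks (best rank 80) lay inside a Dyak_Caf40 peak of rank 160. On 2L, in the proximal 1 Mb, 2 sites were also neighbours. The peaks at 22414970 to 22415700 had ranks of 83 in Dsim_Zeus and 301 in Dyak_Caf40. At 22413137 to 22414872 the ranks were 147 and 428, and here the Dsim_Zeus peak was the wider and covered the Dyak_Caf40 peak.

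The other named arm sites lay farther from the centromeres and included the thinnest overlaps. On 2R at 17591928 to 17592615, 402 bp were shared by peaks of rank 65 in Dsim_Zeus and 396 in Dyak_Caf40. On 3R at 11925439 to 11925865, the shared stretch was 277 bp and the ranks were 166.5 and 420. The remaining 3 sites met only at their edges. On 2R at 3128743 to 3131992, a Dsim_Zeus peak of rank 33 and a Dyak_Caf40 peak of rank 552 shared 8 bp. On X, the site at 8373276 to 8375532 shared 26 bp (ranks 79 and 511), and the site at 6746562 to 6747504 shared 31 bp (ranks 397 and 199).

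**Figure D3:**
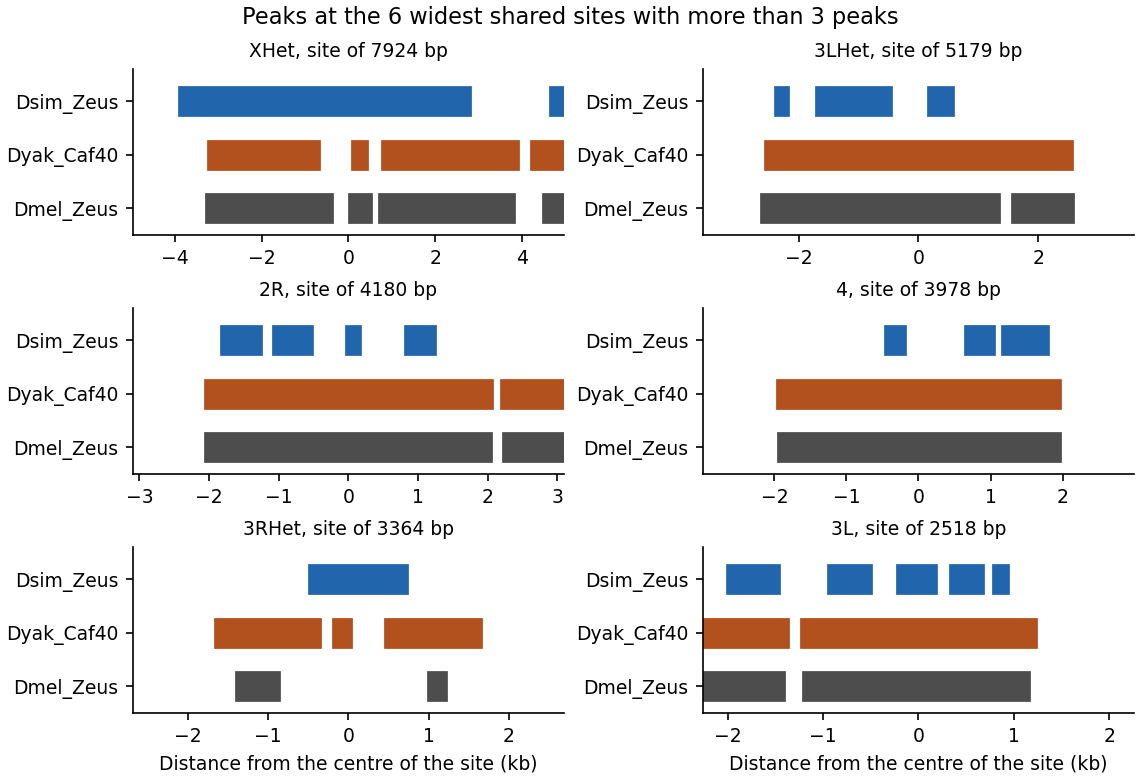
Peaks of the 3 proteins at the 6 widest of the shared sites that hold more than 3 Dsim_Zeus and Dyak_Caf40 peaks together, against distance from the centre of the site in kb. In 4 panels a single Dyak_Caf40 peak spans 3 or 4 Dsim_Zeus peaks, while in XHet and 3RHet a single Dsim_Zeus peak meets 3 Dyak_Caf40 peaks. Peaks of neighbouring sites are cut off at the panel edges.

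Of the 8 heterochromatic sites with the lowest rank sums, 5 lay on XHet, all in the 1 stretch from 183899 to 204067. The widest of all shared sites, at 189285 to 197208, was a Dsim_Zeus peak of 6809 bp and rank 8 that met 3 Dyak_Caf40 peaks, the best of rank 108, over 5239 bp. This Dsim_Zeus peak stood on 64 lines of the list and was counted once. Close by, the Dsim_Zeus peak of rank 5, the best-ranked of those shared, covered a Dyak_Caf40 peak of rank 181 at 184617 to 185419. Its neighbour at 183899 to 184503 had ranks of 9 and 190 and the same arrangement. In the other named XHet sites the Dsim_Zeus peak lay inside the Dyak_Caf40 peak. These were at 197406 to 198821 (ranks 88 and 191, 875 bp shared) and at 202575 to 204067 (ranks 64 and 139, 319 bp shared).

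The remaining named heterochromatic sites lay on other sequences. On YHet at 137056 to 137558, the 2 peaks were nearly the same interval, with 497 of 503 bp shared and ranks of 13 and 186. On 3LHet at 615224 to 620402, a Dyak_Caf40 peak of rank 159 covered 3 Dsim_Zeus peaks (best rank 47) and 2085 bp. On 2RHet at 3187838 to 3188285, the ranks were 30 and 188 with 388 bp shared. In each of these 8 sites the Dsim_Zeus rank was better than the Dyak_Caf40 rank.

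Sites shared by Dsim_Zeus and Dyak_Caf40 often carried a Dmel_Zeus peak as well. A Dmel_Zeus peak lay on 21 of the 43 sites (48.8%), 10 of 25 on arms and 11 of 18 on heterochromatic sequences. Of the shared Dsim_Zeus peaks, 28 of 56 shared a base with a Dmel_Zeus peak, and over the whole list it was 29 of 1090, or 2.66%. Thus 1 Dsim_Zeus peak met Dmel_Zeus without Dyak_Caf40. These counts follow in part from the lists, since 363 of 376 Dmel_Zeus peaks met a Dyak_Caf40 peak (96.5%, 94.2 to 98.0). Of the shared Dyak_Caf40 peaks, 24 of 47 met a Dmel_Zeus peak, against 18.0% of the whole Dyak_Caf40 list.

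The sites with and without Dmel_Zeus differed in rank. With Dmel_Zeus, the best Dyak_Caf40 rank at a site ran from 105 to 511 (median 186), and the best Dsim_Zeus rank from 5 to 994 (median 64). In the 22 sites without Dmel_Zeus, the Dyak_Caf40 ranks ran from 328 to 1588.5 (median 777.8) and the Dsim_Zeus ranks from 16 to 1036.5 (median 361.5). Over the whole Dyak_Caf40 list, the median rank was 180.5 for peaks that met Dmel_Zeus and 1159.5 for the others. All 8 named heterochromatic sites carried Dmel_Zeus, at Dyak_Caf40 ranks of 108 to 191, where 98 of 100 Dyak_Caf40 peaks met Dmel_Zeus whether shared or not. When every peak that shared a base with Dmel_Zeus was left out of both lists, 26 Dsim_Zeus peaks were shared, 2.76 times the mean after shifts (circular-shift permutation, adjusted p = 0.0012). On the arms alone 16 remained, 2.47 times the shifts (circular-shift permutation, adjusted p = 0.00528). This alternative was chosen after the data had been seen.

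**Figure D4:**
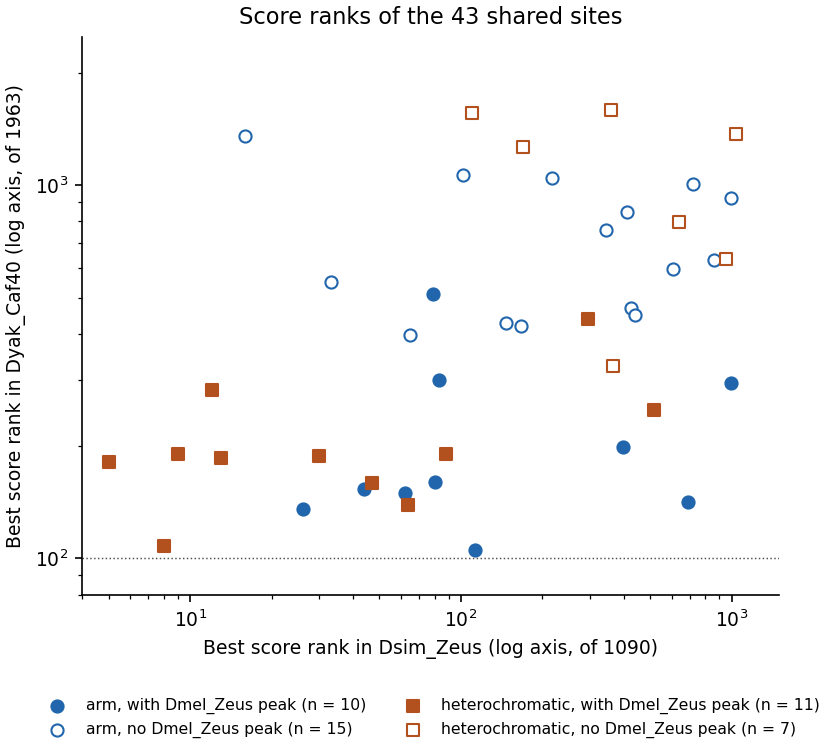
Best score rank of each of the 43 shared sites in the Dsim_Zeus list (x) and in the Dyak_Caf40 list (y), both on log axes, with filled symbols for sites that carry a Dmel_Zeus peak. No site reaches a Dyak_Caf40 rank of 100 (dotted line), and the filled symbols lie at Dyak_Caf40 ranks of 105 to 511.

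Near misses, Dsim_Zeus peaks with no shared base but a Dyak_Caf40 peak within 1 kb, were in weaker excess. There were 34 of them, and the shifts gave 22.3 (SD 5.40, central 95% 12 to 34), a 1.53-fold excess (circular-shift permutation test, adjusted p = 0.0346). On the heterochromatic sequences there were 15 against 8.08 (central 95% 3 to 15, 1.86-fold, circular-shift permutation, adjusted p = 0.0346). Both counts lay at the upper end of the range of the shifts. On the arms there were 19 against 14.2 (6 to 24, 1.34-fold, circular-shift permutation, adjusted p = 0.159). The excess over all sequences and that on the heterochromatic sequences did not pass the threshold with a limit of 200 bp or of 5 kb, at adjusted p between 0.0789 and 0.26, nor did that over all sequences with the higher-scoring 50% of each list (permutation, adjusted p = 0.138).

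Their gaps ran from 72 to 993 bp (median 546.5). Their median ranks were 617.2 in Dsim_Zeus and 799.5 in Dyak_Caf40. A shared site lay within 10 kb of 9 of them, and for 7 the nearest Dyak_Caf40 peak was itself shared with another Dsim_Zeus peak.

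The best-ranked near miss was the Dsim_Zeus peak of rank 3, on 2R at 12185605 to 12186098, which lay 993 bp from a Dyak_Caf40 peak of rank 821. The next, of rank 32 on 2RHet at 2267024 to 2267997, lay 90 bp from a Dyak_Caf40 peak of rank 378. On 3RHet, the peak of rank 55 at 775189 to 775832 had a gap of 887 bp. On 2RHet, the peak of rank 78 at 301488 to 303067 had a gap of 573 bp to a Dyak_Caf40 peak that was shared elsewhere. On X, the peak of rank 99 at 12629614 to 12630054 had a gap of 129 bp. Among these 5, a shared site was within 10 kb only of the peak at rank 78.

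**Figure D5:**
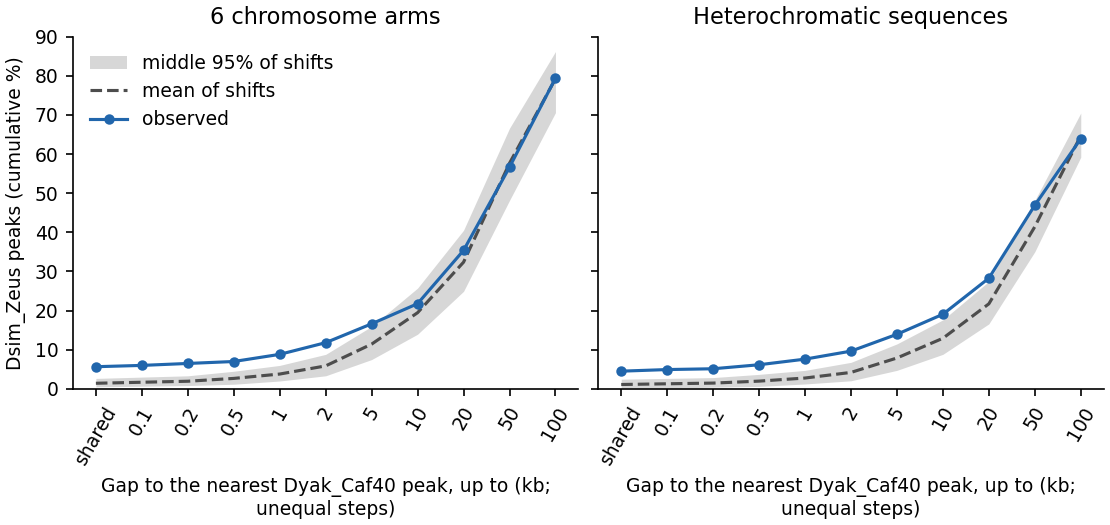
Cumulative percent of Dsim_Zeus peaks within a given distance of a Dyak_Caf40 peak, on arms and on heterochromatic sequences, with the mean and central 95% of circular shifts. The observed share within 2 kb was 11.8% on arms and 9.63% on heterochromatic sequences, and the arm curve enters the band of the shifts by 10 kb.

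At larger distances the arm peaks fell within the range of the shifts. Within 2 kb of a Dyak_Caf40 peak, shared sites included, lay 11.8% of the arm Dsim_Zeus peaks, against 5.86% after shifts (central 95% 3.32 to 8.80). Within 10 kb it was 21.8% against 19.5% (14.0 to 25.7). On the heterochromatic sequences the cumulative share, shared sites included, was still above the range at 10 kb, with 19.1% against 12.9% (8.81 to 17.6). Counted apart, the gaps of 1 to 5 kb and of 5 to 20 kb there were within the range of the shifts. They held 31 peaks against 24.99 (central 95% 14 to 38) and 70 against 67.6 (48 to 89). The gaps of 20 to 100 kb there held 174 against 209.7 (178 to 242), below the range. Within 50 kb the cumulative share was 56.6% on arms, against 57.7% after shifts (48.2 to 66.6). On the heterochromatic sequences it was 46.9% against 41.4% (35.0 to 48.2). The medians that follow have no shift expectation. Unshared Dsim_Zeus peaks lay a median of 43.8 kb from the nearest Dyak_Caf40 peak on arms and 61.6 kb on heterochromatic sequences. For unshared Dyak_Caf40 peaks the medians to the nearest Dsim_Zeus peak were 183.3 kb and 8.42 kb.

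The best-ranked unshared peaks of each list were mostly far from the other list. The Dsim_Zeus peak of rank 1, at the start of XHet at 5 to 771, lay 183.2 kb from the nearest Dyak_Caf40 peak. The peak of rank 2, at 22422227 to 22422927 in the proximal 1 Mb of X, lay 545.9 kb away. The peak of rank 3 was the near miss on 2R with a gap of 993 bp. For Dyak_Caf40, the peak of rank 1, on 3R at 17234088 to 17234518, lay 358.6 kb from the nearest Dsim_Zeus peak. The peak of rank 2, on 3L at 18081142 to 18081536, lay 431.3 kb away, and that of rank 3, on 2L at 8477953 to 8478371, lay 1595.2 kb away. These 3 Dyak_Caf40 peaks all shared a base with a Dmel_Zeus peak.

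Repeated lines were about as frequent among shared as among other Dsim_Zeus peaks. Of the Dsim_Zeus peaks, 254 stood on more than 1 line (23.3%). Among the shared ones it was 11 of 56 (19.6%), and among the others 243 of 1034 (23.5%). Of the shared Dyak_Caf40 peaks, 5 of 47 were repeated (10.6%), and 106 of 1963 in the whole list (5.40%).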

How the data were processed

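ChIP-Seq reads of FLAG-tagged proteins were, per the methods of the study, mapped with BWA (default parameters) to UCSC dm3. MACS2 called the peaks, of which the authors kept those found in both of their best replicates. The submitters' processing notes name CASAVA 1.4 and mm9, which is not a fly build, and the coordinates were read as dm3. The score deposited by the authors has no stated scale. Repeated lines (columns 1 to 5 identical) were counted once, and mitochondrial peaks were left out. Lists were assigned by the line letter in library titles.

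Overlap meant at least 1 bp. Expectations came from 10000 circular shifts (seed 20) of the Dsim_Zeus peaks within each sequence, whose length was the highest peak end in any list. P-values were one-sided and adjusted by the Benjamini-Hochberg method over 6 tests, and the smallest that can occur is 0.0001. Neighbouring peaks stay together in the shifts, but mappability and chromatin do not. Ranks of tied scores were averaged. Shares carry 95% Wilson intervals, which cover counting error only, and a count of 0 carries the share of 3 counts as its limit. Intervals of medians are binomial order-statistic intervals of the shared peaks, which treat peaks as independent, with the median of the other peaks held fixed. Python 3.11.15, numpy 2.4.6, pandas 2.3.3 and scipy 1.17.1 were used, and the code was tested on simulated data.

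Named sites were the 12 arm and 8 heterochromatic sites with the lowest sum of best ranks, the 3 with most shared bases, the 5 best-ranked near misses and the 3 best-ranked unshared peaks of each list. The sites, lists and tests were chosen with earlier results of these data known. Alternatives covered overlap, midpoints, merging, wide peaks, score, repeated lines, sequence lengths, shift distance and near-miss limits. No dm3 sequence was used here, so motifs in the sites were not analysed.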

Additional observations from a re-analysis of the deposited data

How the results depend on the processing

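Across 73 pairs of a result with an alternative setting, where most settings served several results, no result changed direction. In 60 of these pairs the result kept its side of the threshold or moved by less than its error. The excess of shared peaks ran from 2.25-fold to 7.12-fold over all sequences, from 2.47-fold to 8.82-fold on arms and from 3.25-fold to 5.35-fold on heterochromatic sequences. It passed the threshold each time except over all sequences with every line counted (2.25-fold, 163 of 2905 lines, permutation adjusted p = 0.253). That setting has no recorded value for the arms or the heterochromatic sequences, so their ranges leave it out. The arm excess was 8.82-fold with the higher-scoring 50% of each list. The near-miss excess over all sequences no longer passed with a gap of at most 200 bp (1.64-fold, permutation adjusted p = 0.189), with a gap of at most 5 kb (1.20-fold, adjusted p = 0.117) or with the higher-scoring 50% (1.58-fold, adjusted p = 0.138), and on heterochromatic sequences with 200 bp (1.70-fold, adjusted p = 0.26) or 5 kb (1.39-fold, adjusted p = 0.0789). The shared Dsim_Zeus percentage was 6.99 with the higher-scoring 50%, 2.75 with midpoints within 250 bp and 3.46 without peaks over 2 kb. That of Dyak_Caf40 was 3.27 with the higher-scoring 50% and 1.53 with midpoints within 250 bp. The Dsim_Zeus score difference was 36.6 percentile points and 17.0 with every line counted, and its width ratio was 1.37 and 2.12 with merged peaks. The cause of these changes was not tested. The narrower limits and the higher-scoring 50% left fewer peaks, and the 5 kb limit left more. Leaving out U and Uextra, 1 of the alternatives, gave no value because no list had a peak there. Leaving out XHet or Dmel_Zeus sites and shifting Dyak_Caf40 were chosen after seeing the data. No paired analysis was possible because each protein has 1 list and no value per library, and no replicate could be left out for the same reason. The depth behind a peak is unknown, so the share of sites below the calling threshold in either list is unknown too.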

Other observations

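The peak names in each list carry running numbers, and the lists hold different shares of them. The highest number was 7835 in Dsim_Zeus, of which 13.9% were listed, 2844 in Dyak_Caf40 (69.1%) and 427 in Dmel_Zeus (88.5%). The mitochondrial genome, left out of all comparisons, held 1 Dsim_Zeus peak on 168 lines and 1 Dyak_Caf40 peak on 1 line.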
